A study of Mus musculus with 2 samples.

Results

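Complement transcripts of the healing digit tip were examined through 9 genes, *C1qa*, *C1ra*, *C1s1*, *Serping1*, *C4b*, *C3*, *Cfb*, *C3ar1* and *C5ar1*. They were chosen by symbol as components and receptors of the cascade, with earlier results of these data known. Each was listed once among the 33696 genes counted in both libraries. All 9 gave UMIs in both libraries, from 455 over all barcodes for *C3* in the BSA library to 15163 for *Serping1* in the FGF8 library. A UMI (unique molecular identifier) marks 1 captured transcript, so that its PCR copies are counted once.

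Complement is a cascade of plasma and tissue proteins that tags cells and debris for uptake and calls in leukocytes. In the classical pathway, C1q binds its target and activates the proteases C1r and C1s. C1s then cleaves C4 and C2 into an enzyme that splits C3. Factor B forms the convertase of the alternative pathway, C1 inhibitor blocks C1r and C1s, and the fragments C3a and C5a act on leukocytes through the receptors encoded by *C3ar1* and *C5ar1*. Liver supplies most plasma complement, whereas C1q is made mainly by macrophages.

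Hindlimb digits 2 and 4 of ICR mice were amputated through the middle phalanx (P2) at postnatal day 3, and a bead coated with FGF8 (500 ng/µl) or with 0.1% BSA, the control protein, was placed in the closed wound at postnatal day 7. Cells were taken 24 h later, at postnatal day 8, after the epithelium had been removed, by digestion of the tissue distal to the stump. Each library pooled 20 digits from 5 mice, male and female together, and the FGF8 pool could include digits that would not have regenerated. There was 1 library per condition, so treatment, animals, dissection and library cannot be told apart, no test across samples was possible, and every interval given here is a 95% interval for counting error only.

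The BSA library held 67739460 UMIs in 3703 barcodes and the FGF8 library 124889213 UMIs in 7249 barcodes, of which 3252 and 6715 passed the filters on genes and mitochondrial share, with a median of 15377 and 12251 UMIs. The libraries shared 6 barcode sequences. Of the cells whose sex could be called from *Xist* and 4 Y-linked genes, 79.3% were female in the BSA library and 24.6% in the FGF8 library, so ratios are also given within the cells called female or male where that changes the picture. Cells were sorted into 17 types by clustering, and variable complement genes were among the genes used in its first round. The clusters were named by marker lists that held no complement gene. The low-UMI connective, low-UMI myeloid and mixed macrophage and fibroblast cells were left without a cell type name. Fibroblast-like cells (917 BSA and 1406 FGF8 cells) fell into 3 groups called by the leading genes *Dlk1*, *Sema3a* and *Alx4*, and all 8 fibroblast markers were detected in the *Dlk1* and *Sema3a* groups. A neighbouring group of connective tissue cells led by *Prg4*, *Thbs4* and *Scx* (589 and 1462 cells) is called Prg4-Scx by those genes, since the tenocyte list was its highest; like the *Dlk1* and *Sema3a* groups it had 7 of the fibroblast markers in at least 50% of its cells. Macrophage-like cells (249 and 530 cells) held a group called by *Spp1* (149 and 335 cells) and one called by *Cbr2* (100 and 195 cells).

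The upstream sequences of *C1s1*, a gene of the connective tissue, and of *C3*, a gene of the myeloid cells, are shown because both hold the same motif outside annotated exons; for *C1s1* it lies before 1 of its 2 RefSeq starts. Both come from the RefSeq promoter table of the GRCm38.p6 assembly, were found once each on the GRCm39 chromosome, and read 5′ to 3′ on the minus strand. The *C1s1* stretch lies at chr6:124519319-124519568 inside the longer GENCODE gene, and the *C3* stretch at chr17:57535156-57535386 ends at the base before the gene. Capitals mark a match to the CEBP-type motif TTGCNNAA on either strand, from 242 to 235 bases before the RefSeq start of *C1s1* and from 45 to 38 bases before that of *C3*.
*C1s1*: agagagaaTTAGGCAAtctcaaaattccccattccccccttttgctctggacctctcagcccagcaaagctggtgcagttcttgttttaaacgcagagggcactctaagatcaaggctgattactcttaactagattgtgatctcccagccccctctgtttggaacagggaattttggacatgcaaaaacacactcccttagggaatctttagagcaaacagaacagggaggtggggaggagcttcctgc
*C3*: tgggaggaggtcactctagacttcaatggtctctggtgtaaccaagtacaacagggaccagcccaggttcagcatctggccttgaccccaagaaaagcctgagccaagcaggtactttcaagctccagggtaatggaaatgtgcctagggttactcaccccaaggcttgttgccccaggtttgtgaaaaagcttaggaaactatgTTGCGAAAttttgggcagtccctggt
The same letters stood in 9.57% of 32536 windows of 250 bases upstream of a RefSeq start, so a match is a description of these windows and no more. The motifs GAGGAAGT, the interferon-response type, TTCNNNGAA and TATAAA, each searched on both strands and found in 2.45%, 2.98%, 7.04% and 12.3% of windows, were not in the *C1s1* and *C3* windows; TATAAA stood from 235 to 230 bases before the start of *C3ar1*. The table held entries for 5 of the 9 members; *C1qa*, *C4b*, *Cfb* and *Serping1* had none.

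The 9 transcripts divided between connective tissue cells and leukocytes in the same way in both libraries. *C1ra*, *C1s1* and *Serping1* were counted mainly in fibroblast-like, Prg4-Scx and mural-like cells, the last being pericytes and vascular smooth muscle. *C1qa*, *C3ar1*, *C5ar1* and *C3* were counted mainly in macrophage-like, Ly6c2 monocyte-like and neutrophil-like cells. *Cfb* was spread over both, and *C4b* reached its highest level in chondrocyte-like cells. Levels are given as UMIs per 1000000 UMIs of a cell type (CPM). Because 3′ UMI counts are not set against transcript length here, they are compared for 1 gene across cells and never between genes.

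**Figure D1:**
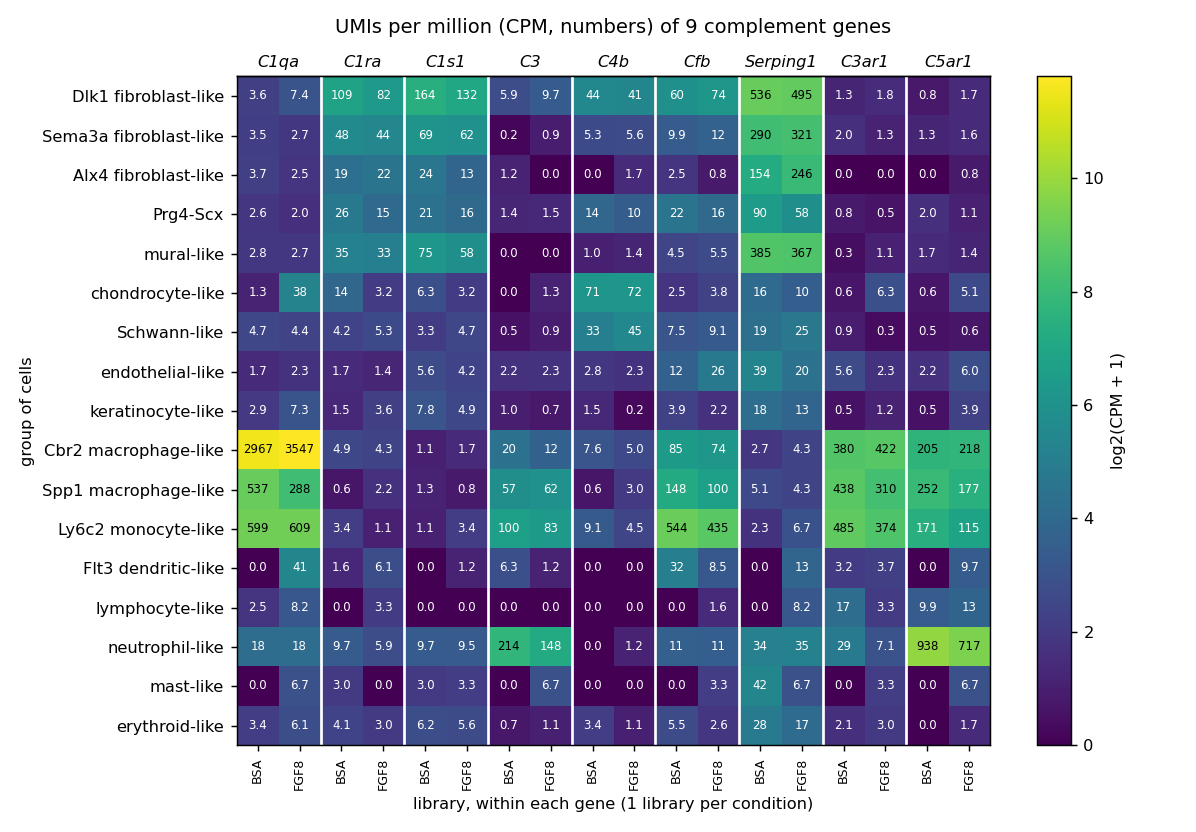
Level of each complement gene (columns, with the BSA and FGF8 library side by side) in 17 groups of cells (rows). Numbers are CPM and colours log2(CPM + 1). *C1qa* reached 2967 and 3547 CPM in Cbr2 macrophage-like cells, *Serping1* 536 and 495 CPM in Dlk1 fibroblast-like cells, and *C5ar1* 938 and 717 CPM in neutrophil-like cells.

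*C1qa* (ENSMUSG00000036887, chr4:136623223-136626161, minus strand), which encodes the A chain of C1q, stood at 1858 CPM in the BSA and 1753 CPM in the FGF8 macrophage-like cells. Those cells carried 88.1% (exact binomial interval 87.3 to 88.8%) and 82.7% (82.1 to 83.3%) of its UMIs while holding 6.27% and 6.48% of all UMIs. A further 9.10% of its FGF8 UMIs, 1291, lay in 41 cells that carried macrophage and fibroblast markers together, against 26 UMIs in the 14 such cells of the BSA library. Of the other named types, Ly6c2 monocyte-like cells followed with 599 and 609 CPM. Only 23 of 79 BSA and 28 of 107 FGF8 cells of that type held a UMI, and 1 BSA cell held 165 of the 525. In fibroblast-like cells, which should lack the gene, the level was 3.56 and 4.31 CPM and 3.16% and 4.27% of cells held a UMI. Single cells set some low levels. Of the 121 UMIs in FGF8 chondrocyte-like cells (38.3 CPM, against 1.26 CPM and 2 UMIs in BSA), 92.6% came from 3 cells, and of the 34 UMIs in FGF8 Flt3 dendritic-like cells 22 came from 1 cell, where the BSA cells had 0.

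The macrophage-like groups held *C1qa* unequally, and the order was the same in both libraries. In Cbr2 cells 95 of 100 BSA and 171 of 195 FGF8 cells had a UMI, and the median cell held 29.3 and 33.3 *C1qa* UMIs per 10000. In Spp1 cells 48 of 149 and 80 of 335 had one, and the tenth of cells with most *C1qa* carried 81.7% and 86.1% of the UMIs. The median depth was 17445 and 13842 UMIs in Cbr2 cells and 9472 and 9517 UMIs in Spp1 cells; with each cell thinned to 2000 UMIs, 19.0% and 15.8% of Spp1 cells still had a *C1qa* UMI, against 0.66% and 0.78% of fibroblast-like cells. The gene was therefore counted in a minority of Spp1 cells at high level and in nearly every Cbr2 cell.

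Between libraries, *C1qa* differed little over all macrophage-like cells, with a log2 ratio of FGF8 over BSA of -0.08 (-0.13 to -0.04), or 0.13 over the whole myeloid cluster, and the pooled ratios of the groups had opposite signs. In Cbr2 cells the level was 2967 CPM in BSA and 3547 CPM in FGF8, a log2 ratio of 0.26 (0.21 to 0.30), with 0.27 among female and 0.016 (-0.072 to 0.11) among male cells. In Spp1 cells it was 537 CPM in BSA and 288 CPM in FGF8, a log2 ratio of -0.90 (-1.03 to -0.77). The Spp1 difference went with the called sex, and the difference between the sexes was not tested. In female-called Spp1 cells (86 BSA and 66 FGF8 cells) the BSA level was 614 CPM and the FGF8 level 183 CPM (log2 ratio -1.74). In male-called ones (21 and 174 cells) they were 293 and 281 CPM (-0.06). With the UMIs held by a minority of cells, the male BSA level rested on few cells. *C1qb* and *C1qc*, which encode the other chains of C1q, gave -0.92 and -1.04 in Spp1 cells, with -1.58 and -1.68 in female-called and 0.22 and 0.01 in male-called cells. In Cbr2 cells they gave -0.02 and -0.01.

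*C1ra* (ENSMUSG00000055172, chr6:124489364-124500402, plus strand) and *C1s1* (ENSMUSG00000038521, chr6:124507297-124559389, minus strand) encode the proteases C1r and C1s and lie next to each other. Each has a closely related copy, *C1rb* and *C1s2*, with which reads could be shared, and *C1s1* overlaps *C1rb* on the other strand. *C1ra* was highest in fibroblast-like cells, at 64.2 CPM in BSA and 55.5 CPM in FGF8, and next among named types in mural-like cells, at 35.2 and 33.4 CPM. *C1s1* stood at 94.1 and 83.1 CPM in fibroblast-like and at 74.5 and 58.2 CPM in mural-like cells. Fibroblast-like cells carried 64.3% and 56.5% of the *C1ra* and 70.4% and 62.0% of the *C1s1* UMIs, where they held 33.6% and 22.2% of all UMIs. In macrophage-like cells the levels were 2.93 and 3.14 CPM for *C1ra* and 1.17 and 1.20 CPM for *C1s1*.

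Both proteases were graded over the 3 largest named groups of connective tissue. The *Dlk1* group had 109 and 82.1 CPM of *C1ra*, the *Sema3a* group 48.1 and 43.5 CPM, and Prg4-Scx cells 26.3 and 15.3 CPM. For *C1s1* the same 3 groups had 164 and 132, 68.7 and 62.0, and 20.6 and 15.7 CPM. The order of these 3 was the same in both libraries and the counting intervals of neighbouring groups did not overlap. The small *Alx4* group had 18.6 and 22.5 CPM of *C1ra* and 23.6 and 13.3 CPM of *C1s1*, from 15 to 27 UMIs each, and its *C1s1* interval overlapped that of Prg4-Scx cells in both libraries. A UMI of both genes was found in 71.3% of BSA and 53.3% of FGF8 *Dlk1* cells and in 17.7% and 13.1% of Prg4-Scx cells; in macrophage-like cells 3.61% and 3.77% had a *C1ra* UMI. Median depth was 23181 and 19787 UMIs in *Dlk1*, 26732 and 29709 in Prg4-Scx, and lower in macrophage-like cells.

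*Serping1* (ENSMUSG00000023224, chr2:84595705-84620873, minus strand) encodes C1 inhibitor, which inactivates both proteases. Its level was 354 CPM in BSA and 377 CPM in FGF8 fibroblast-like cells and 385 and 367 CPM in mural-like cells, and in neither library did these types differ beyond their counting intervals. Among the connective tissue groups its level was 536 and 495 CPM in *Dlk1*, 290 and 321 CPM in *Sema3a*, 154 and 246 CPM in *Alx4*, and 90.1 and 58.4 CPM in Prg4-Scx cells. Endothelial-like cells had 39.1 and 19.9 CPM, from 70 and 43 UMIs. Macrophage-like cells had 3.81 and 4.33 CPM, and neutrophil-like and erythroid-like cells, which should lack it, 17 to 35 CPM. Over the whole myeloid cluster, *Serping1* went from 41 to 217 UMIs (7.11 to 21.1 CPM, log2 ratio 1.57, where 8.77% of 15320 genes were above 2-fold), and 166 of the 217 lay in the cells with both macrophage and fibroblast markers.

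**Figure D2:**
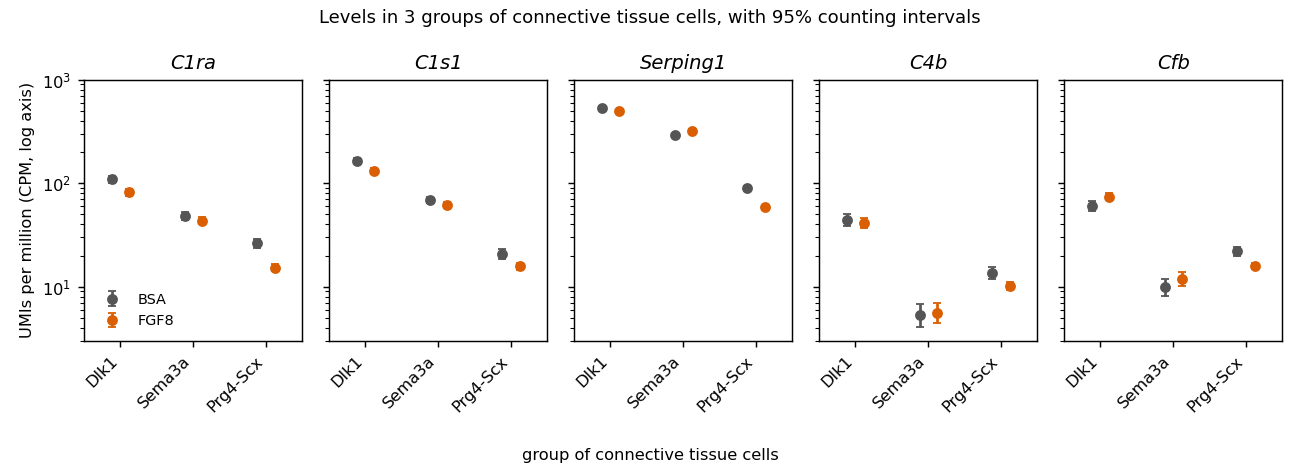
CPM on a log axis of 5 complement genes in 3 groups of connective tissue cells, with BSA in grey and FGF8 in orange. Points are 1 library each and bars are counting intervals. *C1ra*, *C1s1* and *Serping1* step down from *Dlk1* to *Sema3a* to Prg4-Scx cells, while *C4b* and *Cfb* are lowest in *Sema3a* cells, at 5.31 and 9.89 CPM in BSA.

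Over the whole connective tissue cluster the proteases and their inhibitor were lower in the FGF8 library, and part of the difference went with the make-up of the cluster. *C1ra* stood at 43.6 CPM in BSA and 27.3 CPM in FGF8 (log2 ratio -0.67, -0.77 to -0.58), *C1s1* at 57.4 and 37.0 CPM (-0.63) and *Serping1* at 215 and 156 CPM (-0.47). Female-called and male-called cells gave -0.85 and -0.69 for *C1ra*, -0.94 and -0.54 for *C1s1*, and -0.55 and -0.52 for *Serping1*. Prg4-Scx cells, lower than the *Dlk1* and *Sema3a* groups for all 3 genes, made up 45.5% of the UMIs of connective tissue in BSA and 64.0% in FGF8, while the *Sema3a* share was 34.2% and 19.9% and the *Dlk1* share 14.6% and 11.1%. When the FGF8 groups were weighted as in BSA, keratinocyte-like cells left out, the ratios were -0.39 for *C1ra*, -0.28 for *C1s1* and -0.06 for *Serping1*. None of the 9 members passed 2-fold in the whole cluster, where 6.3% of 20566 genes with at least 10 UMIs were above and 5.24% below it.

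Within groups, the ratios of *C1ra* and *Serping1* lay lower in Prg4-Scx than in fibroblast-like cells, with intervals that did not overlap. *C1ra* had a log2 ratio of -0.78 (-0.96 to -0.60) in Prg4-Scx cells, with -0.78 among female and -0.80 among male cells, and *Serping1* one of -0.63 (-0.72 to -0.53), with -0.49 and -0.77. *C1s1* gave -0.39 there. In fibroblast-like cells *C1ra* gave -0.21 (-0.33 to -0.09), *C1s1* -0.18 and *Serping1* 0.09. The 2 proteases were lower there in female-called cells (-0.50 and -0.64) and not in male-called cells (-0.07 and 0.16). Fibroblast-like cells called without setting Prg4-Scx cells apart, from the clustering without integration, gave -0.47 for *Serping1*, and thinning to 2000 UMIs turned the *C1ra* ratio to 0.14. Mural-like cells gave -0.08 for *C1ra*, -0.36 for *C1s1* and -0.07 for *Serping1*. The values within the sexes lay below each of these, at -0.42 (female) and -0.19 (male), at -1.24 and -0.43, and at -0.44 and -0.19.

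*C4b* (ENSMUSG00000073418, chr17:34947354-34962912, minus strand) encodes complement C4, the substrate of C1s, and shares sequence with its copy *C4a*. Its highest level was in chondrocyte-like cells, 71.2 CPM in BSA and 71.5 CPM in FGF8, from 113 and 226 UMIs. Of the other named types, Schwann-like cells followed with 32.9 and 45.1 CPM, below chondrocyte-like cells beyond the counting intervals. By share of *C4b* UMIs, fibroblast-like cells carried 37.6% and 30.5%, Prg4-Scx cells 28.4% and 34.6%, and chondrocyte-like cells 14.4% and 17.2%. Among connective tissue groups *Dlk1* cells had 44.1 and 41.1 CPM, Prg4-Scx cells 13.7 and 10.2 CPM, and *Sema3a* cells 5.31 and 5.59 CPM. The equal levels of chondrocyte-like cells covered opposite ratios in the sexes, 0.78 among female and -1.43 among male cells. The BSA and FGF8 cells numbered 39 and 40 female-called and 11 and 79 male-called. Few cells could set these ratios, since 1 BSA cell of the type held 19 of the 113 UMIs.

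*C3* (ENSMUSG00000024164, chr17:57510964-57535155, minus strand) encodes the central component, which both convertases split. Neutrophil-like cells had the highest level, 214 CPM in BSA and 148 CPM in FGF8, from 133 and 250 UMIs and a median depth of 3214 and 2410 UMIs per cell. Ly6c2 monocyte-like cells had 100 and 83.2 CPM and Spp1 macrophage-like cells 56.5 and 62.2 CPM, where Cbr2 cells had 19.97 and 11.6 CPM. The *C1qa*-rich Cbr2 cells were thus the lowest in *C3* of these 4 groups. Fibroblast-like cells had 1.86 and 3.83 CPM, from 34 and 88 UMIs, and 2.29% and 3.27% of them held a UMI.

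The *C3* ratio was -0.53 (-0.84 to -0.22) in neutrophil-like cells, with -0.74 among female and -0.66 among male cells. Of the 158 BSA and 538 FGF8 cells of this type, only 27 and 31 were called female and 20 and 204 male. In fibroblast-like cells the *C3* ratio was 1.04 (0.46 to 1.66), which made it the 1 member of 9 past 2-fold there. Of 17748 genes, 6.37% were above and 2.24% below 2-fold. *Dlk1* cells had 5.94 and 9.73 CPM of *C3* and held 28.6% and 34.0% of the fibroblast-like UMIs. With the FGF8 groups weighted as in BSA, the *C3* ratio was 0.85. The unweighted ratio was -0.44 among female and 0.55 among male cells, both under the pooled value.

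*Cfb* (ENSMUSG00000090231, chr17:35074852-35081559, minus strand) encodes factor B. The annotation places *Gm20547*, not analysed here, over it on the same strand and *Nelfe* on the other. Ly6c2 monocyte-like cells had by far the highest level, 544 CPM in BSA and 435 CPM in FGF8, and 88.6% and 76.6% of them held a UMI, against 2.53% and 2.42% of neutrophil-like cells (median depth 9496 and 8049 against 3214 and 2410 UMIs). Macrophage-like cells had 114 and 88.5 CPM and fibroblast-like cells 23.9 and 32.5 CPM. *Dlk1* cells had 60.0 and 74.1 CPM, *Sema3a* cells 9.89 and 11.9 CPM, and Prg4-Scx cells 22.1 and 15.9 CPM.

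The pooled *Cfb* ratio had opposite signs in fibroblast-like and Prg4-Scx cells, and it did so in both sexes. It was 0.44 in fibroblast-like cells (0.36 among female and 0.44 among male cells) and -0.47 (-0.66 to -0.29) in Prg4-Scx cells (-0.52 and -0.55). Not all parts of Prg4-Scx were lower in FGF8. At a clustering resolution of 0.3, a group with 99.2% Prg4-Scx cells (262 and 979 cells) went from 14.7 to 17.0 CPM. Another group there, made of Prg4-Scx cells (325 and 492 cells), went from 29.0 to 12.2 CPM. In *Dlk1* cells the *Cfb* ratio was 0.31 (0.10 to 0.51). Where types were called per cell by markers, or without integration, fibroblast-like cells gave -0.14 and -0.12. Ly6c2 monocyte-like cells gave -0.32 (-0.52 to -0.13), or 0.09 with thinned cells, and macrophage-like cells -0.36 (-0.55 to -0.17). Endothelial-like cells went from 11.7 CPM and 21 UMIs in BSA to 26.4 CPM and 57 UMIs in FGF8, a log2 ratio of 1.17 (0.43 to 1.97), where 5.8% of 12262 genes were above 2-fold. With no cell filter and types called per cell it was -0.024.

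**Figure D3:**
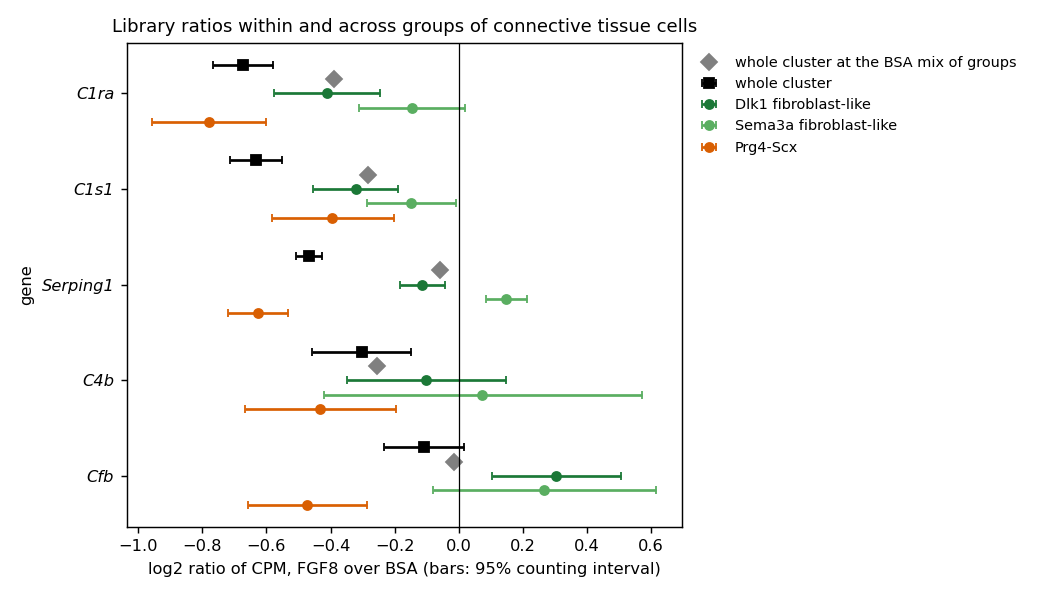
Log2 ratio of CPM, FGF8 over BSA, of 5 complement genes in the whole connective tissue cluster (black squares), in 3 of its groups (circles) and in the whole cluster with the FGF8 groups weighted as in BSA (grey diamonds). Bars are counting intervals. *Serping1* is at -0.47 in the whole cluster and at -0.06 once weighted, and *Cfb* lies above 0 in *Dlk1* cells (0.31) and below 0 in Prg4-Scx cells (-0.47).

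*C3ar1* (ENSMUSG00000040552, chr6:122823393-122833122, minus strand), which encodes the C3a receptor, was counted in both macrophage-like groups and in Ly6c2 monocyte-like cells. It stood at 438 CPM in BSA and 310 CPM in FGF8 in Spp1 cells, at 380 and 422 CPM in Cbr2 cells, and at 485 and 374 CPM in Ly6c2 monocyte-like cells. Neutrophil-like cells had 29.0 and 7.10 CPM, from 18 and 12 UMIs, and Flt3 dendritic-like cells 3.17 and 3.65 CPM. Macrophage-like cells carried 69.7% and 77.3% of its UMIs and Ly6c2 monocyte-like cells 21.4% and 10.7%.

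*C5ar1* (ENSMUSG00000049130, chr7:15980668-15993465, minus strand), which encodes the main C5a receptor, was instead highest in neutrophil-like cells, at 938 CPM in BSA and 717 CPM in FGF8. A UMI was found in 86.1% and 73.2% of them, against 1.20% and 1.49% of fibroblast-like cells, which were deeper. Macrophage-like cells had 226 and 196 CPM and Ly6c2 monocyte-like cells 171 and 115 CPM. By number of UMIs the macrophage-like cells still carried the larger share, 47.5% and 44.4%, against 35.9% and 41.1% for neutrophil-like cells. *C3* and *C5ar1* were found together in 39.9% and 25.7% of neutrophil-like cells.

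**Figure D4:**
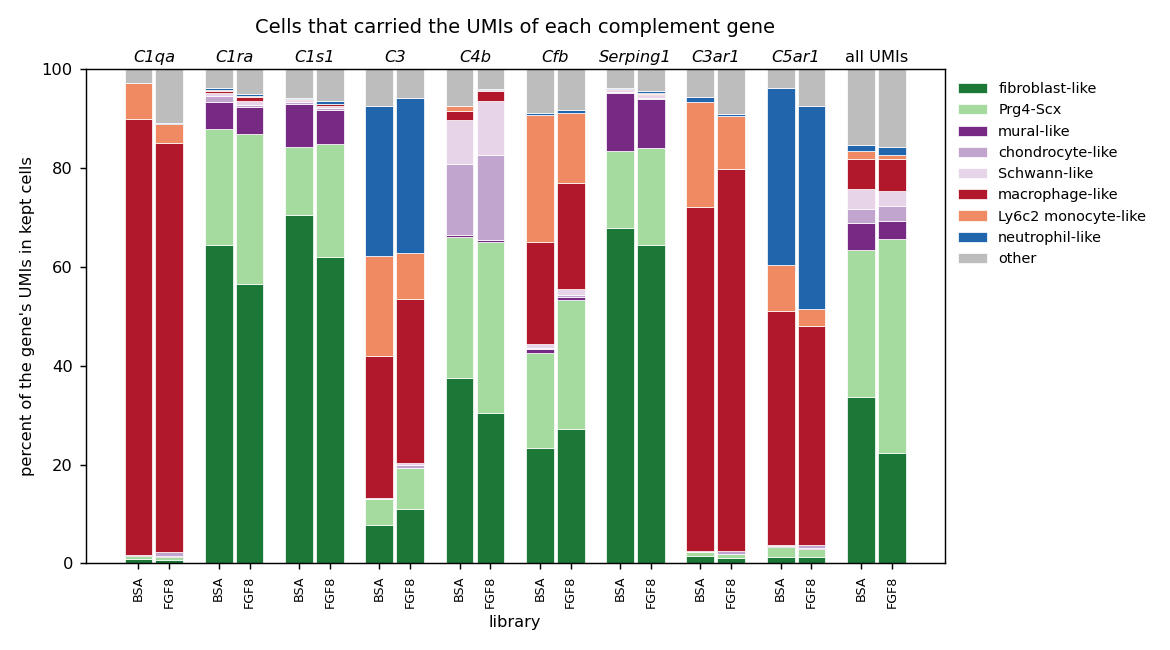
Percent of each gene's UMIs carried by 8 types of cell and by the rest (other), with BSA and FGF8 bars side by side and the split of all UMIs at the right. Macrophage-like cells carried 88.1% and 82.7% of *C1qa*, fibroblast-like cells 68.0% and 64.5% of *Serping1*, and neutrophil-like cells 35.9% and 41.1% of *C5ar1*.

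Both receptors were lower in FGF8 in Spp1 cells and near equal in Cbr2 cells. The log2 ratios in Spp1 cells were -0.50 for *C3ar1* and -0.51 for *C5ar1*, and in Cbr2 cells 0.15 and 0.09. Ly6c2 monocyte-like cells gave -0.37 for *C3ar1* and -0.58 for *C5ar1*, and the latter was 0.02 with thinned cells. In neutrophil-like cells *C5ar1* gave -0.39 (-0.53 to -0.24), with 0.26 among female and -0.58 among male cells. Those values came from 27 and 31 female-called and 20 and 204 male-called cells. No member passed 2-fold in macrophage-like cells, where 8.38% of 13272 genes were above and 3.14% below it.

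**Figure D5:**
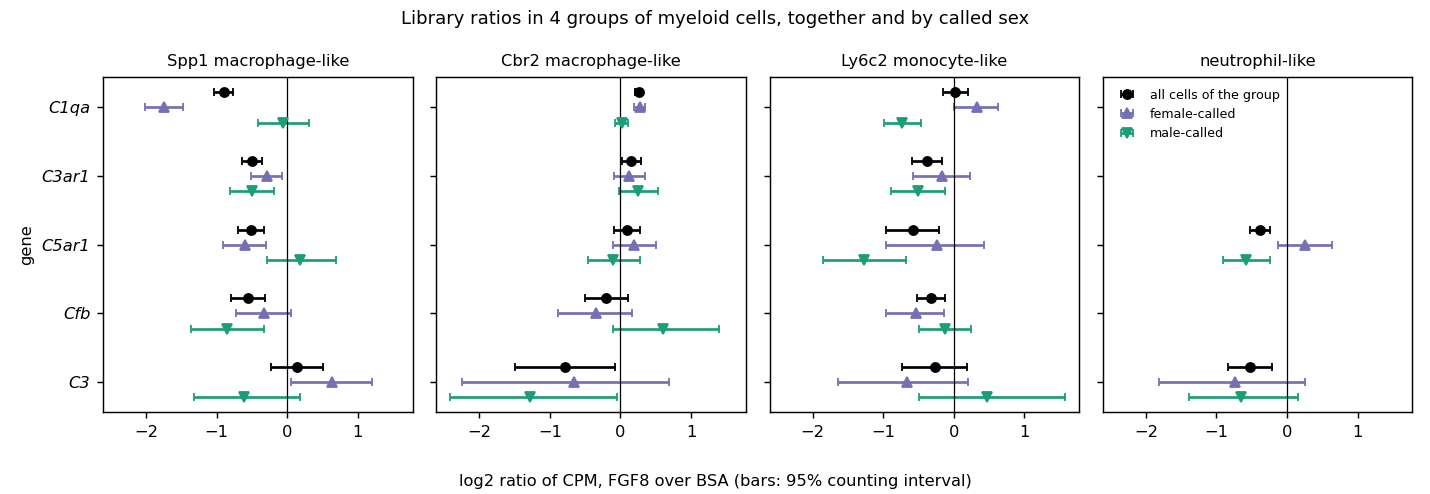
Log2 ratio of CPM, FGF8 over BSA, of 5 complement genes in 4 groups of myeloid cells, for all cells (black), female-called cells (upward triangles) and male-called cells (downward triangles), with counting intervals; genes with few UMIs in a group are left out. *C1qa* in Spp1 cells is at -1.74 among female and -0.06 among male cells, with 86 and 21 such cells in BSA.

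As a list, the 9 members had a median log2 ratio of 0.11 in fibroblast-like cells, where the median of all genes was 0.01. In macrophage-like cells it was -0.08, where that of all genes was 0.05. Some members rested on few UMIs, such as *C1s1* with 4 and 8 in macrophage-like cells. In Prg4-Scx cells the median was -0.47, and 8 of the 9 members were below 0, against 55.9% of 18155 genes with a median of -0.07. The counts of *C1qa* (43 and 88 UMIs), *C3* (23 and 66), *C3ar1* (13 and 24) and *C5ar1* (33 and 49) were low there. Under the stricter cell filter the *C5ar1* ratio went from -0.89 to 0.29. No member was past 2-fold in Prg4-Scx cells, where 5.17% of genes were above and 9.22% below it. Over all cells *C1ra* (-0.62), *C1s1* (-0.59) and *Serping1* (-0.43) had the lowest ratios among the members, and *C1qa* (0.06) the highest.

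The other 49 complement genes were read in the same cells. Of the 32 measured in fibroblast-like cells, 3 were above and 3 below 2-fold (6.37% and 2.24% of all genes), with a median of 0.14. Of the 21 measured in macrophage-like cells, 2 were above and 2 below (8.38% and 3.14% of all genes), with a median of -0.27, and of the 31 in Prg4-Scx cells 5 were above and 4 below (5.17% and 9.22%). *Itgax*, a chain of complement receptor 4, went from 15.3 to 7.32 CPM in macrophage-like cells (-1.06), with -1.66 among female and 0.09 among male cells.

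Of the 8 regulators held on the cell membrane, 7 had a ratio below 0 in fibroblast-like cells, where 48.8% of all genes did, and 7 in Prg4-Scx cells, where 55.9% did. In chondrocyte-like and in Schwann-like cells 4 of the 6 measured were above 0, where all genes had medians of -0.04 and -0.003. Other types went both ways. Below 0 were 5 of 6 in macrophage-like and 4 of 5 in neutrophil-like cells (all-gene medians 0.05 and 0.19). Above 0 were 3 of 3 in Flt3 dendritic-like and 3 of 4 in mast-like cells (0.05 and -0.05). *Cd55*, which speeds the decay of convertases, went from 80.2 to 31.6 CPM in Prg4-Scx cells (-1.34, with -1.44 among female and -0.51 among male cells) and from 132 to 101 CPM in fibroblast-like cells (-0.39). *Csmd1*, another membrane regulator, was a Schwann-like gene here, with 2173 and 2556 CPM. *Clu*, a soluble inhibitor of the terminal complex, gave -0.90 in Prg4-Scx cells.

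The activating side did not move as one. *Masp1*, a protease of the lectin pathway, went from 14.9 to 37.7 CPM in Prg4-Scx cells (1.34, with 1.63 among female and 0.80 among male cells) and from 60.6 to 85.9 CPM in fibroblast-like cells (0.50). *Colec11*, a collectin that binds sugars, was carried mainly by mural-like cells, at 90.4 and 56.3 CPM (-0.68). *C2*, the partner of C4 in the classical convertase, gave -0.37 in fibroblast-like and -0.85 in Prg4-Scx cells, while *Cfp*, which encodes properdin, the stabiliser of the alternative convertase, went from 257 to 347 CPM in macrophage-like cells (0.43). Of the terminal genes, *C9* went from 63 UMIs in BSA to 26 in FGF8 Prg4-Scx cells (3.87 to 0.58 CPM), and *C8g* had 26 and 42 UMIs over all cells. Among receptors, *Cd93* went from 319 to 582 CPM in endothelial-like cells (0.87), and *C1qbp*, whose product also acts in mitochondria, from 102 to 197 CPM in Prg4-Scx cells (0.95).

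Finally, each member was set beside all genes with at least 100 UMIs by the Pearson correlation of log2(CPM + 1) over 34 points, the 17 cell types in 2 libraries; the points share libraries and depth, and the values are descriptions. *C1qa* was most like *C1qc* (0.98), *Ms4a7* and *Fcrls*, and *C3ar1* most like *Ms4a7* (0.95), *C1qc* and *Apobec1*. *C1s1* was most like *Adam33* (0.96), *Adh7* and *Cygb*, *C1ra* most like *Scarf2* (0.86), *Twist1* and *Adh7*, and *Serping1* most like *Hoxa10* (0.91), *Runx1t1* and *Plac9*. *C3* was most like *Slfn4* (0.96), *Gm5150* and *Gm34084*, *C5ar1* most like *Ccr1* (0.95), *Igsf6* and *Clec4d*, *Cfb* most like *Lgmn* (0.90), *Ctsb* and *Rab3il1*, and *C4b* most like *Slc8a3* (0.84), *Zfp469* and *Fam20c*. Between members the highest values were *C1qa* with *C3ar1* (0.93), *C3* with *C5ar1* (0.88) and *C1s1* with *Serping1* (0.87), and *C1ra* with *C1s1* gave 0.78.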

How the data were processed

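Droplet single-cell RNA sequencing was analysed for 1 BSA and 1 FGF8 library. The authors deposited raw UMI counts per gene and barcode, made with Cell Ranger 9.0.0 at default settings on a GRCm39 reference, with no cell filter of theirs applied; the submitters' processing notes also list mm10 and Seurat. Barcodes with more than 200 and fewer than 7500 genes and under 15% mitochondrial UMIs were kept. Cells were clustered in R 4.3.3 with sctransform 0.4.2 and Seurat 5.3.0 (SCTransform, CCA, 30 principal components, resolution 0.05, seed 42). The connective tissue and the myeloid cluster were clustered again at 0.2, without complement genes, X- and Y-linked genes and the genes of the study's lists of changed genes. Names came from 15 marker lists, with at least 3 markers in at least 10% of cells. The rules beyond the lists, and the names by leading genes, were set after seeing the data. Since the types were rebuilt they can differ from the study's. The neutrophil-like cluster kept its name although its cells held few UMIs, which left the low-UMI connective and myeloid cells unnamed. It had 4 of 8 listed markers detected and 3 among its 10 leading genes.

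For each type and library the UMIs were added up and scaled to 1000000 (CPM) with Python 3.11.15, numpy 2.4.6, scipy 1.17.1, pandas 2.3.3 and matplotlib 3.10.9. Log2 ratios of FGF8 over BSA were taken where the libraries together held 10 or more UMIs and have exact conditional 95% intervals; a count of 0 entered as 3. Shares have exact Clopper-Pearson intervals. Intervals and floors cover counting error only. With 1 library per condition no p-value or standard error was computed. Scrublet (scanpy 1.11.5) called 0 doublets in both libraries and so did not work; none were removed. The ratio step was tested on simulated counts. The simulation drew independent Poisson totals per library, the model behind the intervals, and held no clumping of UMIs in single cells. It therefore cannot tell whether the intervals hold for clumped counts. Positions of genes follow GENCODE vM39 (GRCm39). Other complement genes named are those past 2-fold with at least 100 UMIs in fibroblast-like or macrophage-like cells and, beside the members, the 2 with the most UMIs in each role. 1 gene that the rule names is not reported here. The members and lists were chosen with earlier results of these data known.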

Additional observations from a re-analysis of the deposited data

Results flagged for a closer look

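Ratios of FGF8 over BSA with opposite signs in 2 groups of cells are listed with their difference on the log2 scale; each condition had 1 library, and none of these differences was tested. In connective tissue, *Cfb* was at 0.31 in Dlk1 fibroblast-like and at -0.47 in Prg4-Scx cells, a difference of 0.78. At resolution 0.3, *Cfb* was higher in FGF8 in the Prg4-Scx part with 979 FGF8 cells and lower in that with 492. *Serping1* was at 0.15 in Sema3a fibroblast-like cells, 0.78 above its ratio of -0.63 in Prg4-Scx cells and 0.26 above that of -0.11 in Dlk1 fibroblast-like cells. In myeloid cells, *C1qa* was at 0.26 in Cbr2 and at -0.90 in Spp1 macrophage-like cells, a difference of 1.16; among male cells the 2 values were 0.016 and -0.06. *C3ar1* was at 0.15 in Cbr2 macrophage-like cells, 0.65 above Spp1 macrophage-like and 0.52 above Ly6c2 monocyte-like cells.

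Between called sexes, *C1qa* in Ly6c2 monocyte-like cells was at 0.33 among female and -0.73 among male cells, a difference of 1.05. It rested on 10 male-called BSA cells, and 1 BSA cell of the type held 165 of its 525 *C1qa* UMIs. *C4b* in chondrocyte-like cells was at 0.78 and -1.43, a difference of 2.21 that rested on 11 male-called BSA cells. *C1s1* in Sema3a fibroblast-like cells was at -0.61 and 0.28, a difference of -0.90. *C1qa* in fibroblast-like cells was at -1.18 and 3.57, a difference of -4.75 that rested on 1 UMI in male-called BSA cells.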

How the results depend on the processing

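No paired analysis was possible because each condition had 1 library, and for the same reason no library could be left out. Of 74 member ratios with at least 30 UMIs, computed in 647 alternatives, 470 moved by less than their counting interval, 172 by more, and 5 took the other sign where the ratio was past 2-fold; of the 40 ratios whose interval left out 0, 32 of 355 alternatives had the other sign. These 5 were *Cfb* in endothelial-like cells with no cell filter and types called per cell (-0.024), *C1qa* in keratinocyte-like cells without the highest Scrublet scores (-0.10) and with equal weight of cells (-1.35), *C3* in female-called fibroblast-like cells (-0.44) and *C1qa* in male-called low-UMI connective cells (-0.80); the cause was not tested.

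The members' median in fibroblast-like cells was -0.31 without integration, -0.44 in female-called cells and -0.30 over the whole cluster, an alternative chosen after seeing the data. Members past 2-fold there numbered 0 under the stricter filter, without integration, with equal weight of cells and over the whole cluster, and 2 without the highest Scrublet scores and in female-called cells. In macrophage-like cells the median was -0.25 with thinned cells and -0.24 with equal weight of cells, and members past 2-fold numbered 1 with no cell filter, 1 with equal weight of cells, and 2 with types called per cell by markers, in male-called cells and over the whole cluster. Macrophage-like cells carried 90.7% (BSA) and 89.3% (FGF8) of *C1qa* under the stricter filter, 92.1% (BSA) with no filter, 95.3% and 86.2% with types called per cell, 89.1% and 92.3% without the highest Scrublet scores, 82.2% and 81.6% with thinned cells, 89.5% and 88.5% among female, 84.7% and 84.7% in male-called cells, and 97.8% and 96.7% over the whole cluster. Weighting connective tissue groups as in BSA was also added after seeing the data. Clustering without integration joined macrophages with other types and gave no value for them.

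Thinning left out 343 BSA and 781 FGF8 cells. With the resolution at 0.1 or 0.3, or with all variable features, the lowest *C1ra* and *Serping1* levels of the larger connective tissue groups lay in a group made mostly of Prg4-Scx cells. At 0.3, a group with 0.29% Prg4-Scx cells (150 and 193 cells) had 25.6 and 26.7 CPM of *C1ra* and 204 and 253 CPM of *Serping1*. Another group there, made of Prg4-Scx cells, had 28.7 and 22.6 CPM and 109 and 83.7 CPM.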

Other observations

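Groups left without a cell type name also carried complement transcripts. Low-UMI connective cells (358 BSA and 711 FGF8 cells, with a median of 1566.5 and 1699 UMIs) had 35.5 and 22.3 CPM of *C1ra* and 82.5 and 48.9 CPM of *C1s1*. Low-UMI myeloid cells (35 and 62 cells) had 1149 and 692 CPM of *C1qa*, and 25 of 35 and 31 of 62 held a UMI. The cells with macrophage and fibroblast markers together (14 and 41 cells) had 120 and 165 CPM of *C3ar1* and 193 and 70.3 CPM of *Cfb*, and their median depth was 27055 and 24967 UMIs, above that of either macrophage-like group. Whether they were doublets was not tested.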
